A study of Rattus norvegicus with 6 samples.

Results

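The interferon-stimulated genes are genes that cells switch on when an interferon binds its receptor or when viral nucleic acid is sensed inside the cell. A list of 37 of them was looked up by gene symbol in a table of 34257 rat genes, and all 37 symbols were found. The list was chosen with earlier results of these data known. The cells were neonatal rat ventricular cardiomyocytes (NRVMs), heart muscle cells taken from newborn rat ventricles and kept in culture. In 3 libraries the cells had been given perhexiline at 1 µM for 24 h, and in the other 3 they had been given vehicle. Perhexiline, a drug used against angina, blocks carnitine palmitoyltransferase 1 and with it the entry of long-chain fatty acids into mitochondria. No genetic change, virus or interferon treatment is named in the labels of either group. Whether replicates came from different cultures or litters is not in the labels. The p-values therefore measure only the spread between these libraries, which may be technical. The cultures were sequenced in bulk, and markers of fibroblasts, endothelium and leukocytes were present beside those of cardiomyocytes.

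As background, type I interferons bind the receptor pair IFNAR1 and IFNAR2, whose kinases JAK1 and TYK2 phosphorylate STAT proteins. STAT2 then enters the nucleus with IRF9 in the complex ISGF3, which binds the interferon-stimulated response element (ISRE) in promoters. Interferon gamma acts mainly at a different site, the gamma-activated site (GAS). Sensors of foreign RNA activate IRF3 and IRF7, which bind ISRE-like sites as well, so part of the programme can be switched on without interferon. The products cut or edit RNA, block translation, trap virus particles or feed back on the pathway.

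The ISRE letters were looked for in the RefSeq promoter windows of the members, because a shared element is what the members are known for. Each window ran from 250 bases before the RefSeq start site to 50 after it on the rat build GRCr8. Windows were found by symbol for 28 members. Ifit2, Oas2, Mx2, Rtp4, Isg15, Usp18, Ddx58, Dhx58 and Zbp1 had none in the table. The following stretches lie upstream of the start site, read 5′ to 3′ on the gene's strand. Capitals mark a match to the ISRE core on either strand, which is GAAA, then 2 bases of any kind, then GAAA (TTTC, 2 bases and TTTC in reverse).
Ifit3, plus strand, chr1:241527257-241527316: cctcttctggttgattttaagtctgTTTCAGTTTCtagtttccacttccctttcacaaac
Rsad2, minus strand, chr6:48788233-48788292: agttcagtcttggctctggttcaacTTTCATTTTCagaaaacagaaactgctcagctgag
Oasl2, minus strand, chr12:47383302-47383361: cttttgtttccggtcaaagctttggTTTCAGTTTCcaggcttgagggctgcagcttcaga
Gbp2, plus strand, chr2:234005671-234005726: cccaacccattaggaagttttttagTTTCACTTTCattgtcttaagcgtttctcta
Gbp5, plus strand, chr2:233910918-233910977: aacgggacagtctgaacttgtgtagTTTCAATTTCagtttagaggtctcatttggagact
Parp14, plus strand, chr11:78408033-78408092: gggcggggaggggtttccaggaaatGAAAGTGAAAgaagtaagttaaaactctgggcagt
Ifih1, minus strand, chr3:67683993-67684052: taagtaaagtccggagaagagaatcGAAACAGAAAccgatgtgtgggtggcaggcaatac
Irf7, minus strand, chr1:205800058-205800117: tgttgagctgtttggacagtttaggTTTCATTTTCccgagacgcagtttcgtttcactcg
The next pair comes from members that did not pass the test of the RNA data, and carries the same core. In Oas1a, 2 matches overlap.
Oas1a, plus strand, chr12:41330400-41330465: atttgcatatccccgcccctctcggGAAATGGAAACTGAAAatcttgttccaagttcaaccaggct
Nmi, minus strand, chr3:56848609-56848668: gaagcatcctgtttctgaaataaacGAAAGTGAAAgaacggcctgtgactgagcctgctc

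An ISRE core was present in 18 of the 28 windows, against 3.92% of 33469 RefSeq promoter windows of the same 300 bases. It was present in 11 of the 18 windows of members that rose with perhexiline and in 7 of the 10 windows of members that were tested and did not pass. Members with a match were thus found among those that rose and among those that did not pass. Windows without an ISRE core were those of Cmpk2, Oasl, Mx1, Herc6, Irf1, Irf9 and Stat2, which rose. Those of Ifi35, Trim25 and Parp9, which did not pass, had none either. The GAS letters TTCNNNGAA were in 6 of the 28 windows, against 8.87% of all windows. An NF-kB site was in 3, those of Oasl, Gbp5 and Irf1, against 4.18% of all windows. The transcription factor genes Irf1 and Irf9 had a GAS match and no ISRE core, and Irf1 had an NF-kB site as well. Their stretches follow, with the GAS and, in Irf1, the NF-kB site in capitals.
Irf1, plus strand, chr10:38417768-38417904: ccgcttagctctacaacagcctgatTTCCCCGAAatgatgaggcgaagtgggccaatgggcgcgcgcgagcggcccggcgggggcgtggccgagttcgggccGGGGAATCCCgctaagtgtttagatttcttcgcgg
Irf9, plus strand, chr15:33065712-33065770: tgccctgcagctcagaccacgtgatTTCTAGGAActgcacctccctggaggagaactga
A match shows only that these letters lie in the window, and binding was not measured.

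Perhexiline libraries held more RNA of most interferon-stimulated genes than vehicle libraries. Of 35 members tested, 21 rose and none fell, and the largest rises were those of Rsad2 (9.44-fold), Ifit3 (7.31-fold) and Oasl (4.604-fold). A gene was tested where it reached 1 FPKM, a length-normalised abundance, in at least 3 libraries. Differences are on the log2(FPKM + 1) scale with limma's standard error, folds are ratios of mean FPKM, and a gene rose where limma's adjusted p over all 13460 genes tested was under 0.05. Of all genes tested, 3.55% rose by this rule and 3.11% fell. Oas2 and Zbp1 were too low to test. The median log2 difference of the tested members was 0.58, against 0.01 for all genes tested. The difference was above 0 for all 35, as it was for 52.9% of all genes, although that of Nmi changed sign under upper-quartile scaling. All perhexiline libraries stood above all vehicle libraries for 30 of the 35, and this held for 17.0% of all genes tested. The members were chosen with earlier results of these data known, so these comparisons with all genes are a description and not a test. Rsad2, Cmpk2 and Mx1 reached 1 FPKM only in the perhexiline libraries, so their entry into the test favoured a rise, and 18 of the other 32 tested members rose. In bulk RNA, a change in the number of cells that transcribe a gene and a change in RNA per cell cannot be told apart.

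Libraries held 13616252 to 16702523 fragments, recovered as whole numbers from the FPKM values. Leaving out 1 library changed the count of members that rose. With vehicle replicate 1 dropped, 8 members rose (0.646% of all genes), 7 of the 21 and Xaf1, and dropping vehicle replicate 2 left 8 (0.743%). Dropping perhexiline replicate 2 left 9 (0.550%), and dropping perhexiline replicate 3 left 6 (0.416%). The count was 18 when vehicle replicate 3 was dropped (2.91%) and 16 when perhexiline replicate 1 was dropped (3.09%). Rsad2, Ifit3, Oasl, Gbp2 and Irf7 passed in each of the 6 fits that left out 1 library. The genes tested in these fits were those that entered with all 6 libraries, so a dropped library still counted towards entry. Without any 1 of the perhexiline libraries, Rsad2, Cmpk2 and Mx1 would fall short of the filter of 1 FPKM in 3 libraries. Among all called genes, 53.3% were higher with the deposited scaling, 42.0% with upper-quartile scaling and 70.7% with total-fragment scaling. Under upper-quartile scaling 20 members rose (2.85% of all genes), and under total-fragment scaling 28 (6.05%). With no filter on low values 7 members rose (0.430%), with a mean of at least 5 FPKM 15 (6.28%) and with limma-voom 28 (5.62%).

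**Figure D1:**
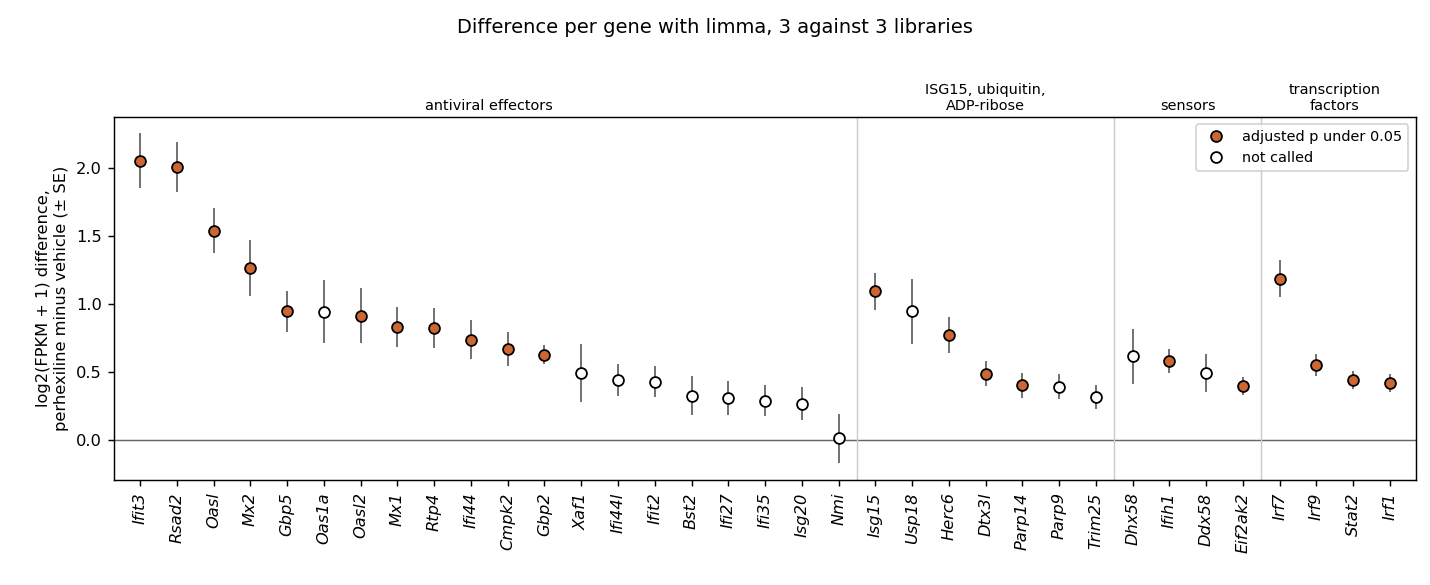
Log2(FPKM + 1) difference, perhexiline minus vehicle, for the 35 tested interferon-stimulated genes, grouped by role, with limma's standard error as bars (3 against 3 libraries). Filled points are the 21 genes with an adjusted p under 0.05, and Ifit3 and Rsad2 lie highest, at 2.05 and 2.01.

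The antiviral effectors carried the largest rises. Of 20 tested, 11 rose and 0 fell, and their median difference was 0.70 (log2). Rsad2, Cmpk2 and Mx1, which are among the 11, reached 1 FPKM only in the perhexiline libraries, and this favoured a rise. Rsad2 encodes viperin, an enzyme that makes a chain-terminating nucleotide and so stops viral RNA synthesis. It stood at 0.516, 0.642 and 0.585 FPKM in vehicle replicates 1, 2 and 3, and at 3.83, 5.68 and 6.95 FPKM in perhexiline replicates 1, 2 and 3. The lowest perhexiline library lay far above every vehicle library, with 243 to 444 fragments against 26 to 36. On the log2 scale it rose by 2.01 ± 0.181 (SE; adjusted p = 0.00782, limma). Cmpk2, a nucleotide kinase that supplies viperin's substrate, lies next to Rsad2 on chromosome 6, on the opposite strand and 14086 bases away in the table's coordinates. Its values were 0.511, 0.664 and 0.521 FPKM with vehicle and 1.32, 1.62 and 1.52 FPKM with perhexiline. The groups did not overlap, and the fold was 2.64 (adjusted p = 0.0292), smaller than that of its neighbour, a difference that was not tested.

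The IFIT proteins bind foreign RNA ends or assist those that do. Ifit3 went from 1.17, 1.22 and 0.734 FPKM in the vehicle libraries to 5.23, 8.16 and 9.45 FPKM in the perhexiline libraries. All perhexiline values lay above all vehicle values, and the rise was 2.05 ± 0.201 on the log2 scale (SE; adjusted p = 0.00805, limma). Ifit2, which ends 5508 bases before Ifit3 starts on chromosome 1, had 5.03, 3.63 and 3.92 FPKM with vehicle and 5.63, 5.96 and 6.24 FPKM with perhexiline. These groups did not overlap either, but vehicle replicate 1 came close to perhexiline replicate 1, and Ifit2 did not pass (adjusted p = 0.0651).

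The 2′-5′ oligoadenylate synthetase family makes the second messenger that activates RNase L, and it includes OAS-like proteins. Oasl stood at 1.32, 1.26 and 0.859 FPKM with vehicle and at 3.99, 5.70 and 6.16 FPKM with perhexiline. Its log2 difference was 1.54 ± 0.163 (SE; limma adjusted p = 0.00805), with no overlap. Oasl2, its neighbour on chromosome 12, had 2.19, 1.78 and 0.821 FPKM with vehicle and 3.46, 3.95 and 3.89 FPKM with perhexiline. Vehicle replicate 3 was the low one, and the fold was 2.36 (adjusted p = 0.0420). Oas1a, a catalytic member, had the same low vehicle replicate 3, with 3.005, 2.38 and 1.16 FPKM against 5.29, 3.98 and 5.65 FPKM. The groups did not overlap and the fold was 2.28, but the spread of the vehicle libraries was wide and Oas1a did not pass (adjusted p = 0.0534). Oas2 had 1 to 3 fragments in each library of either group. Members of this family are close paralogs, so how reads were split between them is uncertain.

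The dynamin-like GTPases MX1 and MX2 trap viral nucleocapsids, and the guanylate-binding proteins coat intracellular pathogens and their vacuoles. Mx2 was the most abundant of these, at 10.97, 10.5 and 6.30 FPKM with vehicle and 25.7, 18.6 and 25.7 FPKM with perhexiline. Its lowest perhexiline library exceeded its highest vehicle library, and the log2 difference was 1.27 ± 0.205 (SE; limma adjusted p = 0.0219). Mx1 went from 0.987, 0.789 and 0.561 FPKM to 1.78, 2.496 and 2.23 FPKM without overlap, a 2.78-fold rise (adjusted p = 0.0256). Gbp5, which also promotes inflammasome assembly, went from 1.36, 1.62 and 0.851 FPKM to 3.10, 3.17 and 3.76 FPKM. It rose 2.62-fold (adjusted p = 0.0207), with vehicle replicate 3 again lowest. Gbp2 had little spread within groups, with 5.83, 5.77 and 6.34 FPKM against 9.80, 9.65 and 9.87 FPKM. Its rise was 1.63-fold (adjusted p = 0.00829).

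Among the other effectors, Ifi44 and Rtp4 rose. Ifi44, a GTP-binding-domain protein with antiviral activity, went from 8.30, 6.53 and 5.63 FPKM to 13.4, 10.2 and 12.3 FPKM, a 1.75-fold rise (adjusted p = 0.0315). Rtp4, a receptor chaperone that also restricts RNA viruses, went from 1.43, 0.882 and 1.08 FPKM to 2.82, 2.28 and 3.18 FPKM, a 2.44-fold rise (adjusted p = 0.0259). Neither gene's groups overlapped. Ifi44l, the paralog beside Ifi44 on chromosome 2, had 0.966 to 1.28 FPKM with vehicle and 1.81 to 2.04 FPKM with perhexiline and did not pass (adjusted p = 0.0638). Ifi27, a small membrane protein, was by far the most abundant member, at 225, 216 and 168 FPKM with vehicle and 275, 219.9 and 258 FPKM with perhexiline. Its groups overlapped, since perhexiline replicate 2 lay below vehicle replicate 1, and it did not pass (adjusted p = 0.174). Isg20, an exonuclease of single-stranded RNA, had 10.6 to 14.1 FPKM with vehicle and 12.8 to 15.5 FPKM with perhexiline, also with overlap (adjusted p = 0.211). Xaf1, an antagonist of the apoptosis inhibitor XIAP, and Bst2, the tetherin that holds budding virus to the membrane, overlapped too (adjusted p = 0.196 and 0.208). Ifi35 and Nmi encode partner proteins that bind each other. Ifi35 had 13.2, 13.2 and 12.95 FPKM against 19.5, 13.7 and 16.0 FPKM, with perhexiline replicate 2 close to the vehicle libraries but no overlap (adjusted p = 0.165). Nmi was level, with means of 4.34 ± 1.22 and 4.30 ± 0.592 FPKM (SD, n = 3; adjusted p = 0.979 with limma), and its small difference changed sign under upper-quartile scaling.

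With vehicle replicate 1 dropped, 6 effectors rose, 5 of the 11 and Xaf1, and dropping vehicle replicate 2 left 5. The count was 5 when perhexiline replicate 2 was dropped and 4 when perhexiline replicate 3 was. Of the effectors, Ifit3, Rsad2, Oasl and Gbp2 passed without any of the 6 libraries, and the highest limma adjusted p was 0.137 for Oasl2, 0.108 for Cmpk2, 0.102 for Ifi44, 0.0957 for Mx1, 0.0882 for Rtp4, 0.0799 for Mx2 and 0.0782 for Gbp5.

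**Figure D2:**
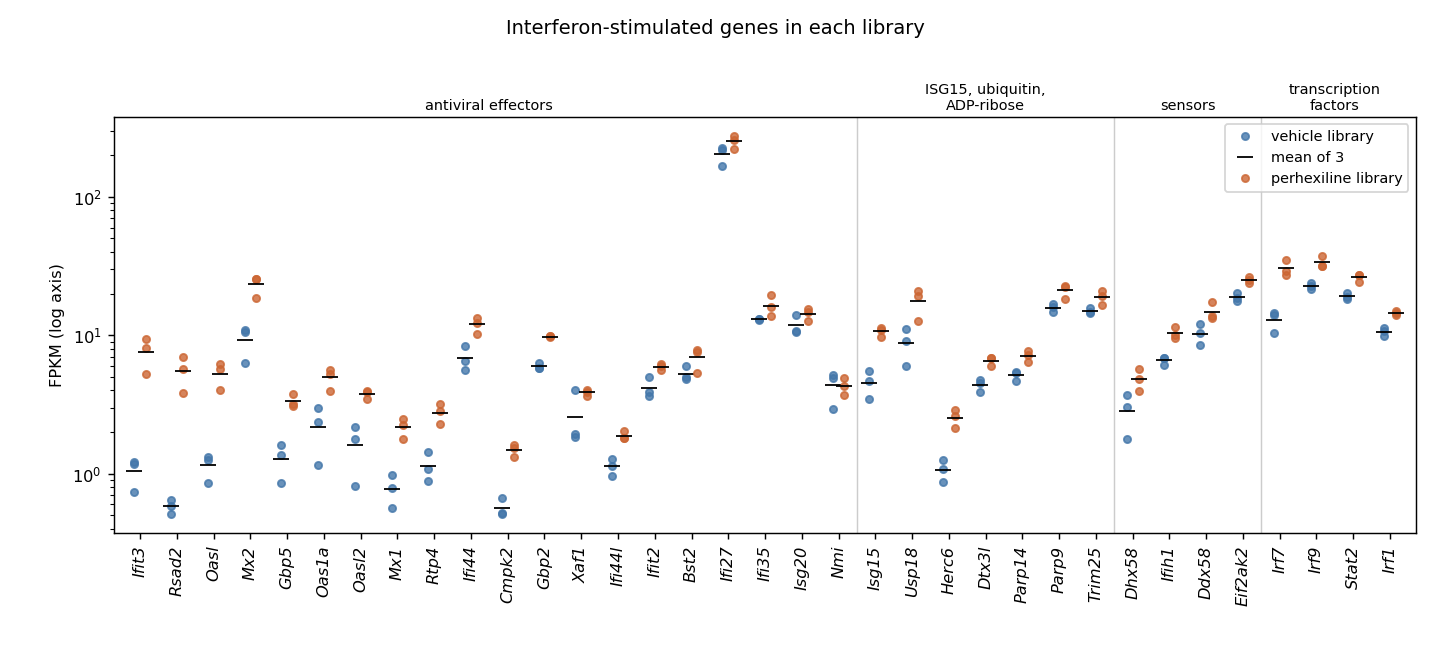
FPKM (log axis) of the 35 tested interferon-stimulated genes in each of 3 vehicle and 3 perhexiline libraries, grouped by role, with a dash at the mean of each group. Ifi27 lies highest, at 168 to 275 FPKM, with overlapping groups. With vehicle, Rsad2 lies at 0.516 to 0.642 FPKM, and Ifit3 and Oasl lie at 0.734 to 1.32 FPKM. With perhexiline, Rsad2, Ifit3 and Oasl lie between 3.83 and 9.45 FPKM.

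Of 7 genes of ISG15 conjugation, ubiquitin transfer and ADP-ribosylation, 4 rose and none fell. ISG15 is a ubiquitin-like protein that is attached to other proteins during the interferon response. Its gene Isg15 had 4.65, 5.48 and 3.48 FPKM with vehicle and 10.99, 9.74 and 11.3 FPKM with perhexiline. No library overlapped, and the log2 difference was 1.09 ± 0.137 (SE; limma adjusted p = 0.0114). Herc6, the ligase that attaches ISG15 in rodents, went from 1.26, 1.08 and 0.877 FPKM to 2.12, 2.61 and 2.89 FPKM, a 2.38-fold rise (adjusted p = 0.0244). Usp18, the protease that removes ISG15 and also blocks the receptor, had 11.2, 9.04 and 6.01 FPKM with vehicle and 19.3, 12.7 and 21.0 FPKM with perhexiline. Vehicle replicate 1 and perhexiline replicate 2 lay close together, and despite a fold of 2.02 Usp18 did not pass (adjusted p = 0.0573).

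PARP9 and DTX3L form a complex that modifies histones and viral proteins with ubiquitin, and PARP14 is a related ADP-ribosyltransferase. Their genes lie on chromosome 11, where Parp9 and Dtx3l point away from each other with 1129 bases between them. Parp14 starts 337747 bases beyond Dtx3l. Dtx3l had 4.79, 4.52 and 3.91 FPKM with vehicle and 6.81, 6.04 and 6.86 FPKM with perhexiline, a 1.49-fold rise (adjusted p = 0.0315). Parp9 had 16.8, 15.96 and 14.6 FPKM against 22.2, 18.3 and 22.8 FPKM, a 1.34-fold difference that lay just outside the threshold (adjusted p = 0.0506). Parp14, with 5.401, 5.30 and 4.67 FPKM against 7.16, 6.40 and 7.72 FPKM, lay just inside it (1.38-fold; adjusted p = 0.0454). The groups of all 3 were separate, with perhexiline replicate 2 nearest to the vehicle libraries. Trim25, the ubiquitin ligase that supports RIG-I signalling, had 14.5, 15.7 and 14.8 FPKM with vehicle and 19.3, 16.6 and 20.9 FPKM with perhexiline and did not pass (adjusted p = 0.0716). Of this group Isg15 alone passed in 5 of the 6 fits without 1 library (0.0546 without perhexiline replicate 3), while Herc6 passed in 2 and Parp14 and Dtx3l in 0 of them (limma adjusted p up to 0.136). Dropping vehicle replicates 1, 2 and 3 singly left 1, 1 and 2 genes of this group, dropping perhexiline replicates 1, 2 and 3 singly left 2, 1 and 0, and total-fragment scaling gave 7.

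Of 4 cytosolic RNA sensors tested, 2 rose and none fell, and their median difference was 0.53 (log2). Ifih1 encodes MDA5, which senses long double-stranded RNA. It had 6.81, 6.81 and 6.15 FPKM with vehicle and 9.55, 10.03 and 11.5 FPKM with perhexiline, a 1.57-fold rise without overlap (adjusted p = 0.0187). Eif2ak2 encodes PKR, the kinase that halts translation on double-stranded RNA. It had 20.2, 17.6 and 18.7 FPKM against 25.04, 23.7 and 26.5 FPKM, a 1.33-fold rise (adjusted p = 0.0256). Ddx58 encodes RIG-I, the sensor of RNA with a 5′ triphosphate, and had 12.1, 10.3 and 8.45 FPKM against 13.9, 13.3 and 17.3 FPKM. Dhx58 encodes LGP2, a partner of both RNA helicase sensors, and had 3.73, 3.03 and 1.79 FPKM against 5.67, 3.94 and 4.80 FPKM. The groups were separate for Ddx58 and Dhx58 as well, but their neighbouring libraries were close and neither passed (adjusted p = 0.0773 and 0.111). Zbp1, the Z-nucleic acid sensor that can start necroptosis, was listed at 0 in 5 libraries and had 3 fragments in perhexiline replicate 1. Ifih1 and Eif2ak2 lost their calls when either of vehicle replicates 1 and 2, or either of perhexiline replicates 2 and 3, was dropped, and no sensor passed then (limma adjusted p up to 0.0617 and 0.0874).

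All 4 transcription factors rose. Irf7, which drives the later wave of interferon genes and is itself induced by interferon, changed most, from 14.4, 13.9 and 10.4 FPKM to 29.2, 27.3 and 35.0 FPKM. Every perhexiline library lay well above the highest vehicle library, and the log2 difference was 1.19 ± 0.134 (SE; limma adjusted p = 0.00928). Irf9, the DNA-binding subunit of ISGF3, had 22.7, 23.8 and 21.5 FPKM with vehicle and 31.9, 31.8 and 37.6 FPKM with perhexiline, a 1.49-fold rise (adjusted p = 0.0164). Stat2, another subunit of ISGF3, had 20.2, 18.9 and 18.4 FPKM against 27.4, 24.3 and 27.4 FPKM, a 1.38-fold rise (adjusted p = 0.0203). Irf1, which responds to interferon gamma and to NF-kB, had 10.7, 11.2 and 9.89 FPKM against 14.4, 14.9 and 13.98 FPKM, a 1.36-fold rise (adjusted p = 0.0207). The groups did not overlap for any of these genes. Irf7 passed in all 6 fits without 1 library and Irf9 in 5, with 0.0617 without vehicle replicate 1. Stat2 passed in 3 and Irf1 in 2 of them (limma adjusted p up to 0.0761 and 0.0759). Dropping vehicle replicate 1 left 1 factor, and dropping vehicle replicate 2 or perhexiline replicate 3 left 2.

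The rest of the pathway was read from 4 lists of other genes, also chosen with earlier results of these data known. Of 11 interferon genes in the table, 10 were listed at 0 in all 6 libraries, among them Ifnb1 and Ifng. Ifnk had 1 fragment in perhexiline replicate 1 and 1 in perhexiline replicate 3. A listed 0 can be a failed estimate, since Fth1, a ferritin gene that most cells use, also had 0 in all 6 libraries, so no level is read from these zeros. Of 6 tested receptor genes, 1 rose and none fell: Ifngr2, a subunit of the interferon gamma receptor, went from 12.5 ± 0.866 to 15.4 ± 0.547 FPKM (SD, n = 3; limma adjusted p = 0.0479). The type I receptor genes Ifnar1 and Ifnar2 had means of 23.3 and 25.1 FPKM, and of 11.6 and 10.9 FPKM, with vehicle and perhexiline (adjusted p = 0.317 and 0.602).

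Among 13 kinases, STATs and feedback genes, 1 rose and none fell. It was Stat3, the main transducer of interleukin 6 signals, from 137 ± 2.31 to 162 ± 6.58 FPKM (SD, n = 3; limma adjusted p = 0.0329). Among 12 genes of sensing and induction, 1 rose and none fell. It was Myd88, the adaptor of Toll-like receptors, from 9.61 ± 0.390 to 12.6 ± 1.29 FPKM (SD, n = 3; adjusted p = 0.0466). Irf3, the factor that sensors activate by phosphorylation, had 49.3, 52.6 and 33.5 FPKM with vehicle and 46.7, 42.1 and 39.0 FPKM with perhexiline, with overlap (adjusted p = 0.846).

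Of 46 further interferon-stimulated genes tested, 15 rose and 0 fell, and their median difference was 0.24 (log2). The T cell chemokine gene Cxcl10 had 4.87, 8.19 and 8.20 FPKM with vehicle and 22.5, 33.1 and 34.6 FPKM with perhexiline (adjusted p = 0.00898). Slfn2, a schlafen that protects transfer RNA in immune cells, rose 1.84-fold (adjusted p = 0.00805), and Cxcl11, a ligand of the same receptor as Cxcl10, 4.10-fold (0.0185). Cxcl11 had 0.276 to 0.631 FPKM with vehicle and 1.59 to 1.93 FPKM with perhexiline. It entered the test through the perhexiline libraries only, which favoured a rise, and it is counted among the 15. Ifit1, which binds RNA with foreign caps, rose 2.87-fold (adjusted p = 0.0189), Tap1, the peptide transporter of antigen presentation, 1.51-fold (0.0189) and B2m, the light chain of MHC class I, 1.25-fold (0.0240). Slfn2 and Cxcl10 passed in all 6 fits without 1 library. Ifit1, Cxcl11 and B2m passed in 3, Tap1 in 2, Stat3 in 1, and Ifngr2 and Myd88 in 0 of them (limma adjusted p up to 0.148). Over the 4 lists, 18 of 77 tested genes rose, and 0 fell, against 3.55% and 3.11% of all genes tested. Of the 18, 15 were further interferon-stimulated genes, and each of the other lists held 1. Dropping vehicle replicates 1, 2 and 3 singly left 5, 3 and 10 of the 18, and dropping perhexiline replicates 1, 2 and 3 singly left 9, 4 and 2. Tdrd7 was called lower when vehicle replicate 3 was dropped, and Jak2 was called when perhexiline replicate 1 was, neither among the 18.

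**Figure D3:**
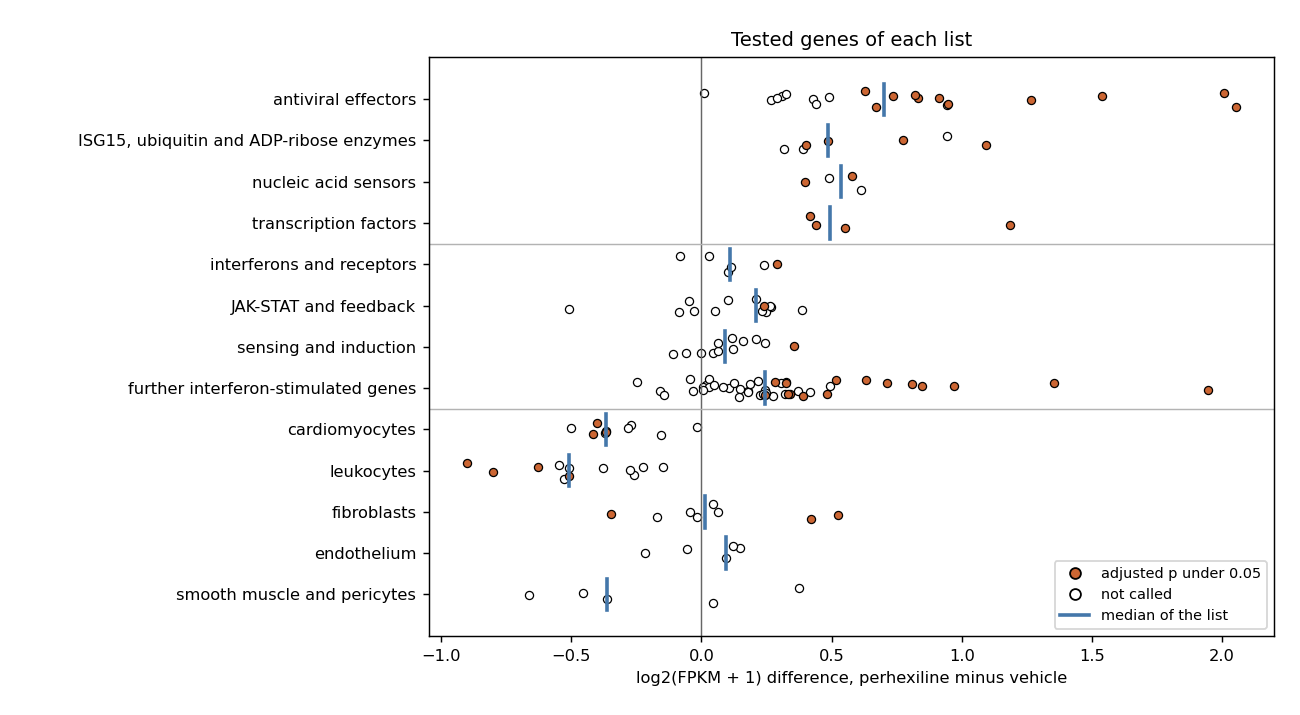
Log2(FPKM + 1) difference, perhexiline minus vehicle, of each tested gene in the 4 role groups of interferon-stimulated genes, 4 lists of other pathway genes and 5 lists of cell type markers, with the list's median as a bar. Filled points have an adjusted p under 0.05. The effectors' median is 0.70, that of further interferon-stimulated genes 0.24 and that of leukocyte markers -0.51.

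Folds are given next by the level in vehicle cells, as a description, since that level is the denominator of the fold. The 10 tested members with a vehicle mean under 2 FPKM had a median fold of 2.63 (1.67 to 9.44), and 9 of them rose. All 10 were under 1 FPKM in at least 1 vehicle library, so their entry into the test leaned on the perhexiline libraries. The 14 members at 2 to 10 FPKM had a median fold of 1.60 (0.99 to 2.52), and 7 rose. The 11 members at 10 FPKM or more had a median fold of 1.34 (1.21 to 2.37), and 5 rose, with Irf7 the highest of them. Over all genes tested, the median folds in these bands were 1.008, 1.002 and 1.012, and 2.47%, 2.18% and 4.74% of genes rose. These bands were set after the values were seen.

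Libraries of one group differed in the same direction for many members. Vehicle replicate 3 was the lowest vehicle library for 25 of the 35 tested members (71.4%), against 35.4% of all genes tested. Perhexiline replicate 2 was the lowest of its group for 22 members (62.9%), against 34.1% of all genes, and perhexiline replicate 3 the highest for 22 (62.9%), against 34.8%. The highest vehicle library exceeded the lowest by a median of 1.38 times over the members and 1.16 times over all genes tested. The ratio was 2.67 for Oasl2, 2.59 for Oas1a and 2.08 for Dhx58, while it was 1.10 for Gbp2. In the perhexiline group the median was 1.25 for members and 1.15 for all genes. Genes are not independent of each other, so these shares describe the libraries and are not a test.

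The members that rose did not all order the perhexiline libraries alike. In Rsad2, Ifit3, Oasl, Oasl2, Mx1, Cmpk2, Gbp5, Herc6 and Ifih1, 9 in all, perhexiline replicate 1 was lowest. In 11 others, among them Mx2, Isg15, Irf7, Irf9, Stat2 and Ifi44, perhexiline replicate 2 was lowest, and in Irf1 perhexiline replicate 3. Ifit3 in perhexiline replicates 1 and 2 stood at 5.23 and 8.16 FPKM, whereas Mx2 stood at 25.7 and 18.6 FPKM. This sorting was made after the values were seen and was not tested.

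**Figure D4:**
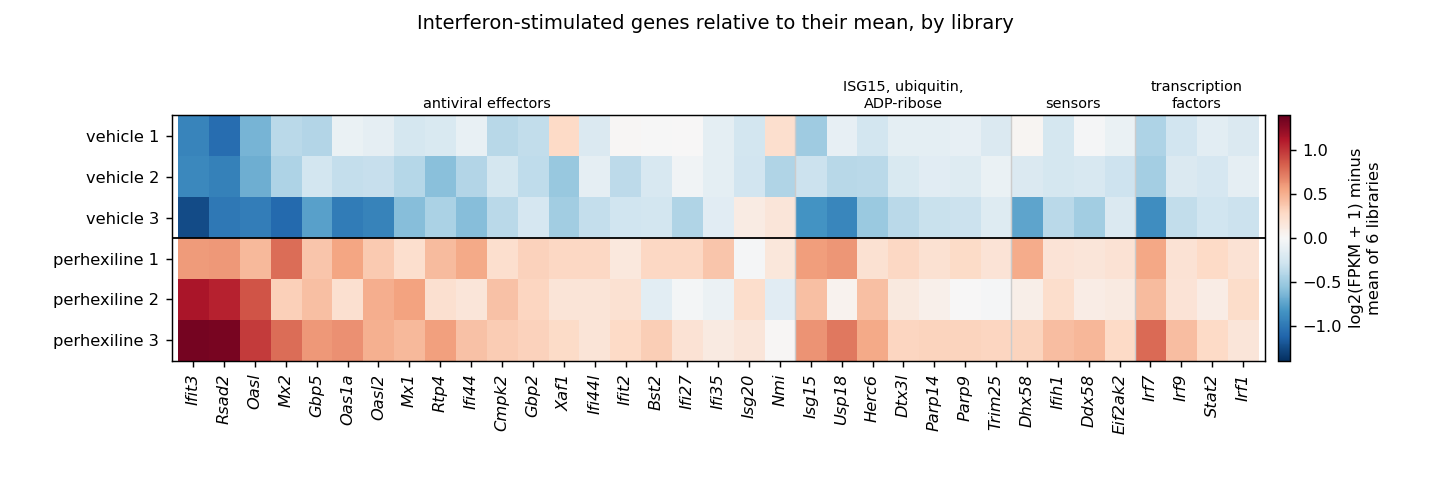
Level of each of the 35 tested interferon-stimulated genes in each library, as log2(FPKM + 1) minus the gene's mean over the 6 libraries (colour scale). Vehicle replicate 3 is the lowest vehicle library for 25 genes, and Rsad2 and Ifit3 are lower in perhexiline replicate 1 than in the other perhexiline libraries.

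Markers of other cells in the cultures were set beside these values. Cardiomyocyte markers were abundant, with a summed level of 18983 to 22969 FPKM in vehicle libraries and 15689 to 18077 FPKM in perhexiline libraries, and 3 of 10 fell. The 24 leukocyte markers in the table summed to 142 to 151 FPKM with vehicle and to 118, 75.8 and 104 FPKM in perhexiline replicates 1, 2 and 3. Of the 12 tested, 4 fell, among them the macrophage genes Mrc1 and C1qa, and none rose. A further 6 of the 24, not tested, were listed at 0 in all libraries, including the T cell genes Cd3e and Cd3d. As with the interferon genes, no level is read from these zeros. The leukocyte sum and the cardiomyocyte sum were both lower in every perhexiline library than in any vehicle library. Perhexiline replicate 2, which was lowest for 22 members, had the lowest leukocyte sum of its group. It also had the lowest cardiomyocyte, fibroblast, and smooth muscle and pericyte sums, but not the lowest endothelial sum. Fibroblast markers summed to 1044 to 1083 and 1003 to 1049.9 FPKM, with 2 of 8 rising and 1 falling, and endothelial markers to 17.2 to 20.5 and 19.0 to 20.1 FPKM, with none of 5 tested passing. Smooth muscle and pericyte markers summed to 69.7 to 85.1 FPKM with vehicle and 61.7 to 75.6 FPKM with perhexiline, with a median log2 difference of -0.36, and none of 5 tested passed. The part of these cells in the members' changes was not tested.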

How the data were processed

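RNA-seq of 3 vehicle and 3 perhexiline libraries was used. The authors deposited 1 table of FPKM values, per the file headers. The submitters' processing notes name HISAT2 2.0.5 and DESeq2 without a role. Build, annotation and counter were not given in the sources used here. Strand use is thus unknown, and reads of paralogs or overlapping genes may be shared.

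FPKM times gene length gave whole multiples of 1 step per library for 100% of positive values (tolerance 0.01), taken as fragments, 13616252 to 16702523 per library. limma 3.58.1 (R 4.3.3) was fitted to log2(FPKM + 1) of every gene that reached 1 FPKM in 3 or more libraries (mean-variance trend, two-sided, group as the only term), and p-values were adjusted by Benjamini-Hochberg over 13460 genes. The procedure was tested on simulated data. Alternatives were other filters, pseudocounts, scalings, limma-voom on the fragments, a replicate block and leaving out each library. The fits without 1 library kept the genes that had passed the filter with all libraries. The members, gene lists and role groups were chosen with earlier results of these data known. Values in every library are given for members that rose and for the 2 most abundant others of each role. Those of Ifit2, Oas1a and Usp18 were added after their values were seen. Of the other lists, genes that rose are named, up to 6 per list by adjusted p, with the core interferon, receptor and Irf3 genes. A further core gene is not reported here. Promoter sequences are from RefSeq (GRCr8), a different source from the table's coordinates.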

Additional observations from a re-analysis of the deposited data

How the results depend on the processing

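With 3 libraries a group, the number of calls depended on each of several libraries. The count of interferon-stimulated members that rose (21) ranged from 6 to 18 in the fits without 1 library. That of effectors (11) ranged from 4 to 10, and that of ISG15, ubiquitin and ADP-ribose genes (4) from 0 to 2. That of sensors (2) ranged from 0 to 2, and that of transcription factors (4) from 1 to 4. Other pathway genes called in either direction (18) ranged from 2 to 11, and the 11 included Tdrd7, which was called lower. All genes called (896) ranged from 87 to 841. With no filter on low values these counts were 7, 4, 1, 0, 2, 3 and 162. Sensors then had unadjusted p under 0.05 for 4 genes. A mean FPKM of at least 5 gave 3 effectors. Total-fragment scaling gave 7 ISG15, ubiquitin and ADP-ribose genes, and limma-voom gave 7 of these, 4 sensors and 1562 genes in all. Nmi had a log2 difference of -0.0151 under upper-quartile scaling, of -0.20 without vehicle replicate 2 and of -0.07 without perhexiline replicate 1, with a range of -0.20 to 0.13 over the fits without 1 library. No other tested member changed sign under any setting run. The cause of these changes was not tested.

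The labels give the same replicate numbers in both groups but no pairing. Deviations from the group means of same-numbered libraries correlated at -0.02, -0.10 and -0.04 over 13460 genes. No library correlated best with the library of its own number in the other group. These values show no sign of pairing by number. With few libraries, each centred on its group mean, they cannot exclude a shared culture or litter. With the replicate number as a block, 6 members (beside 101 of all 13460 genes that rose), 4 effectors, 1 ISG15 group gene, 0 sensors, 1 transcription factor, 3 other pathway genes and 173 genes in all were called with limma, and 4 sensors had an unadjusted p under 0.05. The planned count models edgeR and DESeq2 were not run. Of the models for counts, only limma-voom was fitted, on the fragments recovered from FPKM. Some members had few fragments, such as Ifi44l with 18 to 47 per library, and the part of depth in their differences was not tested.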
